A study of Mus musculus with 21 samples.

Results

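Alternative last exon (AL) events and mutually exclusive exon (MX) events are 2 of the 7 types of alternative splicing (AS) event that can be read from a transcript annotation. In an AL event, transcripts of 1 gene splice from a common donor site to different terminal exons. In an MX event, transcripts carry 1 of 2 internal exons between the same flanking exons. All AL and MX events of the merged long-read annotation of mouse gametes and preimplantation embryos were taken, by the definitions of the event caller SUPPA2 and within 1 gene locus. There were 236 such events, 168 AL and 68 MX, among 5715 events of the 7 types. The AL events lay in 142 loci and the MX events in 61, and 4 loci held both. A named gene could be assigned to 144 AL and 63 MX events, and a protein-coding one to 120 and 56.

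The choice of a last exon joins splicing to 3′ end formation, because the pre-mRNA is cleaved and polyadenylated at the end of the terminal exon that is used. A proximal last exon and a distal one can give a protein with another carboxyl end and an mRNA with another 3′ untranslated region, which is read in oocytes by the proteins that store, translate or clear maternal mRNA. Mutually exclusive exons, often ancient duplicates of one another, exchange 1 segment of a protein for another without changing its ends, as in the tropomyosins and Rab GTPases. The mouse oocyte and zygote hold maternal mRNA made before ovulation, and most transcription of the embryo begins at the 2-cell stage.

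The study profiled 7 stages with 2 short-read libraries each and 1 pool of long-read cDNA each. Sperm came from the epididymis of DBA/2J males (DBA/2N in the protocol text). Oocytes were at metaphase II and came from C57/BL6J females of 3 to 5 weeks that were superovulated with PMSG and hCG, 20 h after hCG. Embryos were ♂DBA/2J x ♀C57/BL6J, were collected 20 h after hCG and were cultured in KSOM to the 1-cell stage (24 to 26 h after hCG), 2-cell stage (46 to 48 h), 4-cell stage (54 to 58 h), 8-cell stage (68 to 70 h) or blastocyst (94 to 96 h). Every library was made from cDNA of pooled cells or embryos, amplified by Smart-seq2, a full-length method that starts from the poly(A) tail. Sperm and oocytes differ in strain as well as in kind of gamete, so that these cannot be told apart.

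The measure was the percent spliced in index (PSI), which is the TPM (the abundance of a transcript, scaled to a fixed total in each library) of the transcripts with form 1 divided by the TPM of the transcripts with either form. Form 1 of an AL event is the proximal last exon and form 1 of an MX event is the upstream exon, both in the direction of transcription. TPM values of whole transcripts were estimated by salmon and are not counts of junction reads. They do not keep the depth of a library, so that no counting error can be given for a PSI. The study lists the reads of each short-read library, which differed in number between libraries of the same stage and are not used here. PSI was set only where both forms summed to at least 1 TPM. A PSI is a share of transcripts. A lower TPM of 1 form does not tell fewer cells from less RNA per cell.

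The sequences of 3 MX pairs show what such an exchange replaces. Acp1 was named by the fixed rule for MX events, and Rab6a and Tpm1 were chosen after their values were seen, because their exons are of equal length. Capitals mark the positions at which the 2 exons of a pair differ, in the ungapped comparison of their letters. All are from GENCODE vM21 transcripts on GRCm38 (mm10) and are written 5′ to 3′ on the transcript strand. Rab6a, a GTPase of the Golgi, has its upstream exon at chr7:100629666-100629771 and its downstream exon at chr7:100629838-100629943 on the plus strand, both wholly coding.
Rab6a upstream exon: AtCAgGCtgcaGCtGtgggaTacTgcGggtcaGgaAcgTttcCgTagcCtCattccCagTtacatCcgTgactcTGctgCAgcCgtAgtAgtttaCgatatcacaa
Rab6a downstream exon: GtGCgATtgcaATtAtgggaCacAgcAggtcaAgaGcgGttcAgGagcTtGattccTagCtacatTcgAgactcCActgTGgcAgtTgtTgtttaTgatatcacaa
Tpm1, a tropomyosin that winds along actin filaments, has its upstream exon at chr9:67032466-67032541 and its downstream exon at chr9:67031951-67032026 on the minus strand.
Tpm1 upstream exon: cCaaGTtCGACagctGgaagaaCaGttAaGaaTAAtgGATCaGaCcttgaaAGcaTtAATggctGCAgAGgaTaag
Tpm1 downstream exon: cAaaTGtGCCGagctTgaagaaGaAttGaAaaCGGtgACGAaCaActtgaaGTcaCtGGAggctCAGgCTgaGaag
Acp1, the low molecular weight phosphotyrosine phosphatase, has its upstream exon at chr12:30904870-30904983 and its downstream exon at chr12:30904718-30904831 on the minus strand. These exons are known to give its fast and slow forms.
Acp1 upstream exon: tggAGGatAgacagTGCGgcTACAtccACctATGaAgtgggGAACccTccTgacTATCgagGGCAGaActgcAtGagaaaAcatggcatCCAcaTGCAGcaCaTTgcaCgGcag
Acp1 downstream exon: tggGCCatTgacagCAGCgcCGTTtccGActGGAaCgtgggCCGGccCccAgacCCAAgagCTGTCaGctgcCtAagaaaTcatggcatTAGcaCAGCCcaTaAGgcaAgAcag

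The 2 exons were identical at 76 of 106 positions in Rab6a (71.7%), at 43 of 76 in Tpm1 (56.6%) and at 64 of 114 in Acp1 (56.1%). Only 66 bases lay between the Rab6a exons, 38 between those of Acp1 and 439 between those of Tpm1. Calu, a calcium-binding protein of the secretory pathway, and P4ha1, a prolyl hydroxylase of collagen, were the other 2 of the 5 MX events whose exons had the same length, with 65.5% and 59.2% of positions identical.

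The coding ends of 3 AL pairs show what the choice of a last exon replaces, from the splice acceptor to the stop codon, which is in capitals. Pbdc1 and Vamp4 were named by the fixed rule, and Cdc42 was chosen after its values were seen. Pbdc1, a gene of little known function, has in the event shown its proximal last exon at chrX:105083016-105083502 and its distal one at chrX:105116314-105116755 on the plus strand. Its distal coding end is the run of 5 bases caTGA.
Pbdc1 proximal coding end: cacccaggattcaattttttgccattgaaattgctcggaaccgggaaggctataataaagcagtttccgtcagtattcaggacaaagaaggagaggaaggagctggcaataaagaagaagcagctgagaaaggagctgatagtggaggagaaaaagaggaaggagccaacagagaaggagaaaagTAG
Vamp4, a SNARE protein of the trans-Golgi network, has last exons at chr1:162594546-162596124 and chr1:162597049-162599072 on the plus strand.
Vamp4 proximal coding end: ttcttatagttgtgaaattccgtactTGA
Vamp4 distal coding end: ctcagatcatcctgcacttgaaaaaaTGA
Cdc42, a small GTPase known for alternative carboxyl ends that carry different lipids, has its proximal last exon at chr4:137322441-137322619 and its distal one at chr4:137319698-137321192 on the minus strand.
Cdc42 proximal coding end: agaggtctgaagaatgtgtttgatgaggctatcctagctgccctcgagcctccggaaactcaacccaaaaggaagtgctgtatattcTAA
Cdc42 distal coding end: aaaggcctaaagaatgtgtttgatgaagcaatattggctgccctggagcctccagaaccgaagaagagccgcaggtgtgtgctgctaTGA

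The Pbdc1 ends held 188 and 5 coding bases, stop codon included, so that its proximal form carries a longer carboxyl end. The Cdc42 ends both held 90 coding bases, of which 59 were identical by position (65.6%), and those of Vamp4 both held 29, of which 14 were identical (48.3%). A coding end was annotated in both last exons of 48 AL events, with medians of 75.5 bases in the proximal and 40.5 in the distal exon. Its length was equal in 5 of these 48, namely Cdc42, Lamp2, Ppm1b, Tpm3 and Vamp4.

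As a group, the AL events joined last exons of similar size that lay far apart. The median length was 412.5 bases for the proximal and 445.5 for the distal last exon, and the ends of the 2 forms were 336 to 198688 bases apart, with a median of 5062. Both junctions were in the GENCODE vM21 annotation for 72 AL events, only the proximal one for 28, only the distal one for 24 and neither for 44. The transcript end lay within 24 bases of an annotated end for 68 proximal and 83 distal forms.

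Most MX pairs were unlike in sequence. The 2 exons differed in length by a multiple of 3, which keeps the reading frame, in 36 of the 68 events, and both were wholly coding in 11. Among 56 pairs with sequence for both exons the median identity in an alignment was 45.05%, and 5 pairs reached 60%. A merged transcript that used the outer splice sites of both exons existed for 27 events, and one with neither exon for 32. An exon that spans both could be counted among the 27. At least 1 merged transcript outside the mutually exclusive pattern thus existed for 49 events. With GENCODE vM21 transcripts added it was 57 events. Both forms were annotated in GENCODE for 21 MX events.

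The markers set sperm, oocytes and blastocysts apart from the other stages, but not both 2-cell libraries. Summed over 5 sperm genes the level was 13541 and 13396 TPM in the sperm libraries and at most 15.4 in any other. The 5 oocyte genes summed to 4410 and 15894 TPM in the oocyte libraries, which differed widely. The 1-cell libraries were next, at 1924 and 1613 TPM, so that this list set oocytes less clearly apart from 1-cell embryos. No locus could be assigned to any of 5 cumulus cell genes, so cumulus cells were not checked. The 6 blastocyst genes summed to 9617 and 35611 TPM in blastocysts and to at most 727 TPM elsewhere. Over 4 genes of the 2-cell stage, 2-cell replicate 1 was at 14.3 TPM, below both 4-cell libraries (29.8 and 33.1 TPM), and replicate 2 at 288 TPM. The oocyte genes were at 73.6 and 708 TPM in the same 2 libraries. The difference in PSI between the 2 libraries of a stage exceeded 0.2 for 39 of 155 AL events at the 2-cell stage (25.2%) and 36 of 126 in sperm (28.6%). It did so for 31 of 133 in oocytes (23.3%) and 26 of 144 in 1-cell embryos (18.1%), and in the 3 other stages for 8.72% to 15.8%. The part of this spread in the results was not tested.

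Both forms summed to at least 1 TPM in all 14 short-read libraries for 85 AL events (50.6%) and 26 MX events (38.2%), beside 2819 events of all types (49.3%). For these 85 AL events the 7 stage means of PSI spanned a median range of 0.366, and for the 26 MX events one of 0.373, against 0.247 over all types. The median PSI of the 85 AL events was 0.526 in sperm, 0.413 in oocytes, 0.421 at the 1-cell, 0.482 at the 2-cell, 0.517 at the 4-cell and 0.553 at the 8-cell stage, and 0.531 in blastocysts. The proximal share was thus lowest in the oocyte and 1-cell libraries. The 4 libraries of those stages had medians of 0.38 to 0.454, and the 8 later ones medians of 0.465 to 0.618. The MX medians stayed between 0.512 and 0.6, in no comparable order.

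**Figure D1:**
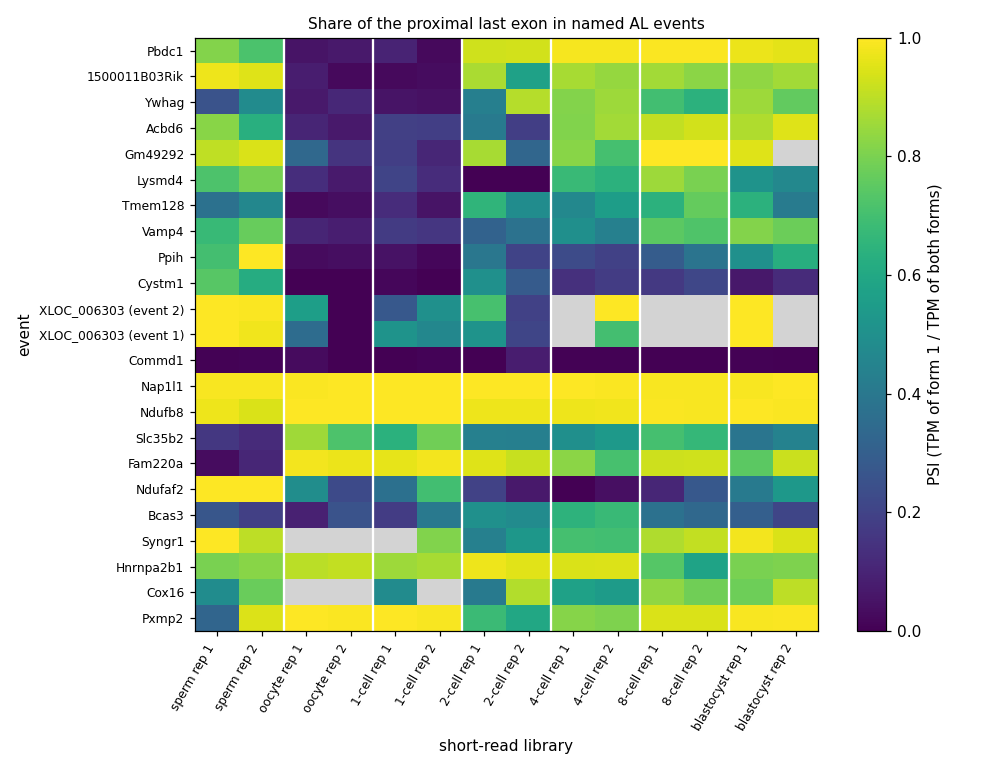
Share of the proximal last exon (PSI, colour, from 0 to 1) in each of the 14 short-read libraries (columns, grouped by stage) for the AL events named by the fixed rule (rows). Grey marks a library where both forms summed to under 1 TPM. Pbdc1 is at 0.0253 to 0.0977 in the 4 oocyte and 1-cell libraries and at 0.928 or more from the 2-cell stage on.

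Among the AL events tested between consecutive stages from oocyte to blastocyst, the largest PSI shift was that of 1 event of Pbdc1. It moved from the short distal end to the long proximal one between the 1-cell and 2-cell stages. The PSI of this event was 0.815 and 0.718 in sperm, 0.054 and 0.0686 in oocytes and 0.0977 and 0.0253 in 1-cell embryos. It was 0.928 and 0.93 in 2-cell embryos and 0.958 to 0.995 in the 6 later libraries. The low and high libraries did not overlap. The proximal form was at 3.35 and 0.292 TPM in 1-cell and 35.0 and 222 TPM in 2-cell embryos, while the distal form was at 30.9 and 11.2 and then at 2.7 and 16.7 TPM. The log2 ratio of proximal to distal TPM rose by 6.53 ± 0.70 (SE, 2 libraries a stage; limma, Benjamini-Hochberg adjusted p = 0.039). Only 1 of 135 AL events, that of Pbdc1, was called from the 1-cell to the 2-cell stage, at an adjusted p under 0.05 and a mean PSI difference over 0.1, beside 0.238% of events of all types. The call was lost with a replicate block, with a pseudocount of 0.1 and with PSI as the tested value. Whether it rests on a single library could not be decided, since leaving out 1 of the 4 keeps 1 library in a stage. Pbdc1 also has a more distal last exon, at chrX:105116827-105117091, which is in other AL events. Against that exon the mean proximal share was 0.786 in sperm and 0.323 in oocytes, so that the exchange was not between 2 ends alone.

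A fit with 1 spread from all 14 libraries takes the spread as equal in every stage. Over all types the median PSI difference between the 2 libraries was 0.074 at the 2-cell stage and 0.058 in sperm. It was 0.02 to 0.032 in the other stages. Adjusted p of this fit can thus be too low where the 2-cell stage or sperm is compared. Libraries outside the compared stages were not held to the minimum of 1 TPM. In this fit 24 of 135 AL events were called from the 1-cell to the 2-cell stage, beside 10.9% of all events. Of these, 14 moved toward the proximal exon (beside 4.76% of all events with form 1 higher) and 10 toward the distal one (beside 6.11% with form 1 lower). Among the 10 was a further event of Pbdc1, its exon at chrX:105116314-105116755 against that at chrX:105116827-105117091 (PSI change -0.59, adjusted p = 0.00142, limma). The event of Pbdc1 given above was first among the 24 (adjusted p = 0.000131, limma). The next were Psmd11, a proteasome subunit, 1500011B03Rik, Taf8, a subunit of the general transcription factor TFIID, Pcgf1, a Polycomb protein, and Ywhag, the gamma form of the adaptor 14-3-3, with other genes between them. In this fit the log2 ratio of Psmd11 fell by 4.09 ± 0.44 (SE) and that of 1500011B03Rik rose by 6.33 ± 0.80, with adjusted p of 0.000461 and 0.000878. In Psmd11 the PSI was 0.933 and 0.946 at the 1-cell and 0.482 and 0.412 at the 2-cell stage. In the separate fit of the 4 libraries the adjusted p was 0.0601 for Psmd11 and 0.0586 for 1500011B03Rik. Over all 11 settings run it ranged from 0.000131 to 0.399 for Pbdc1, from 0.000461 to 0.43 for Psmd11 and from 0.000878 to 0.399 for 1500011B03Rik (limma).

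1500011B03Rik, an uncharacterised gene on chromosome 5, used its proximal last exon in sperm and its distal one in oocytes. Its PSI was 0.976 and 0.952 in sperm, 0.0807 and 0.0252 in oocytes, and 0.0263 and 0.0344 at the 1-cell stage. From the 2-cell stage on it was 0.573 to 0.874. The long-read pools held the proximal form in sperm, 2-cell, 8-cell and blastocyst and the distal form in oocyte and 1-cell. The pools and the short-read libraries were made from the same amplified cDNA, so that they are not independent.

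Ywhag, Tmem128, which encodes a transmembrane protein, and Vamp4 also had a low proximal share in every oocyte and 1-cell library and a higher one in every library from the 2-cell stage on. The PSI of Ywhag was 0.0455 to 0.11 in the 4 early libraries and 0.43 to 0.888 in the 8 later ones, where the 2-cell libraries differed most (0.43 and 0.888). Tmem128 was at 0.0248 to 0.126 and 0.417 to 0.763. Vamp4 stood at 0.0927 ± 0.0129 (SD, n = 2) in oocytes, and its means in the next 5 stages, in order, were 0.166, 0.346, 0.466, 0.738 and 0.796. None of the 5 steps of Vamp4 between consecutive stages was called. From sperm to oocytes Vamp4 was called, with a mean PSI of 0.722 and then 0.0927 (adjusted p = 0.0208, limma). Tmem128 was called there too (0.418 and then 0.0316, adjusted p = 0.019), and Ywhag was not (0.37 and then 0.0898, adjusted p = 0.108).

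**Figure D2:**
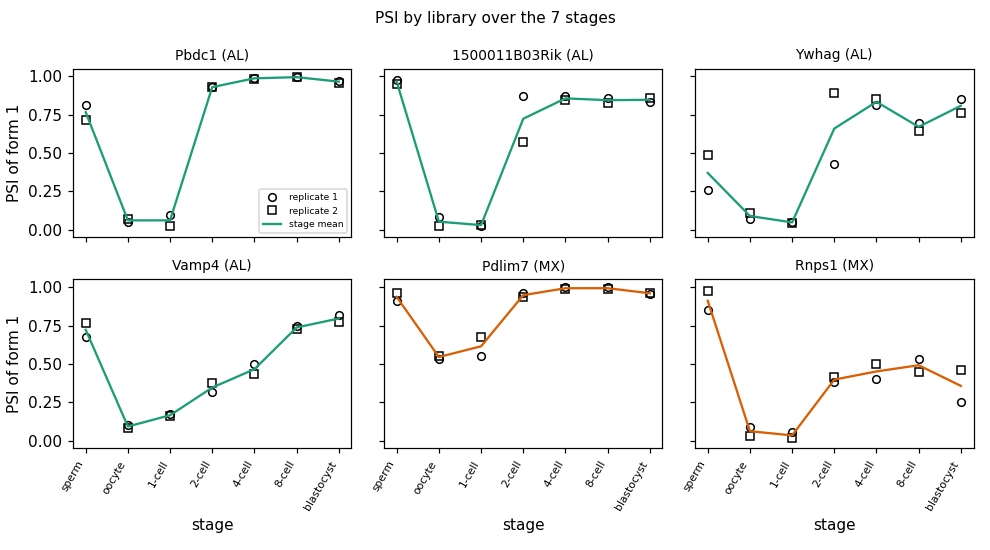
PSI of form 1 in each library (circles and squares, replicates 1 and 2) and the stage means (lines) over the 7 stages, for 4 AL and 2 MX events. In all 6 panels the 4 oocyte and 1-cell points lie below the 8 points from the 2-cell stage on, and the 2-cell points of Ywhag are far apart, at 0.43 and 0.888.

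To describe this pattern over all members, the 4 oocyte and 1-cell libraries were set against the 8 libraries from 2-cell to blastocyst, a grouping chosen after the values were seen. The PSI did not overlap, with means over 0.1 apart, in 23 of 85 AL events (27.1%) and 5 of 26 MX events (19.2%), beside 11.7% of all 2819 events. Neither this share nor the range of stage means was taken for each of the other types. From 1-cell to 2-cell the median absolute PSI difference was 0.1229 for AL and 0.1233 for alternative first exon events. An excess over all types is therefore not shown to be particular to AL events. In AL events the proximal share was higher from the 2-cell stage on in 14 events (16.5%, beside 5.92% of all events for form 1) and lower in 9 (10.6%, beside 5.78%). With both forms summing to at least 5 TPM the counts were 13 of 45 AL events (28.9%) and 1 of 10 MX events (10%, beside 10.7%). Without the 2 libraries of the 2-cell stage they were 25 AL events (29.4%) and 10 MX events (38.5%), beside 17.5%. The MX share thus lay below that of all events in one setting and above it in the others.

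The 14 AL events with a higher proximal share were those of 1500011B03Rik, Cdc42, Cnep1r1, Cystm1, Pbdc1, Ppih, Srsf10, Taf8, Tmem128, Tpm3, Usp19, Vamp4, Ywhag and Zfp978. Ppih is a cyclophilin of the U4/U6 snRNP. Taf8 had a PSI of 0.0014 to 0.0066 in the early libraries and of 0.116 to 0.512 in the later ones. For Cdc42 the ranges were 0.13 to 0.222 and 0.227 to 0.596, so that they barely separated.

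The 9 AL events with a lower proximal share from the 2-cell stage on were those of 3110040N11Rik, Brf2, Ccnc, Exd2, Fam220a, Lamp2, Pcgf1, Psmd11 and 1 locus with no named gene. Taf8, Cdc42, Lamp2 and Brf2 are given after their values were seen. Lamp2, a lysosomal membrane protein whose alternative last exons encode different cytoplasmic tails, had a PSI of 0.647 to 0.969 in the early and 0.12 to 0.453 in the later libraries. The early libraries held little Lamp2 mRNA, with proximal forms of 1.26 to 2.96 TPM. Brf2, a factor of RNA polymerase III, was at 0.744 to 0.982 and 0.237 to 0.623. Its proximal last exon, at chr8:27125625-27125639, is far shorter than the proximal median of 412.5 bases. Whether so short an exon is a complete transcript end was not tested.

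**Figure D3:**
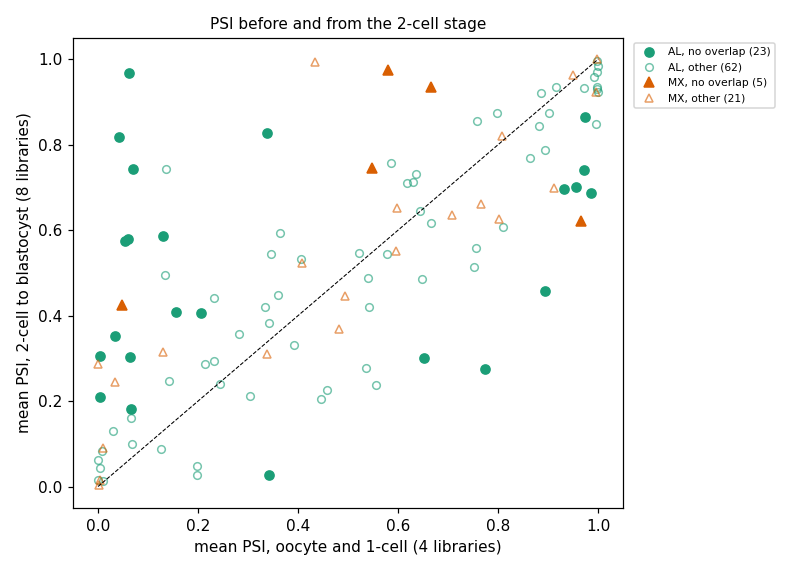
Mean PSI over the 4 oocyte and 1-cell libraries (x axis) against the mean over the 8 libraries from 2-cell to blastocyst (y axis) for the 85 AL and 26 MX events with at least 1 TPM in all 14 libraries. Filled symbols are the 23 AL and 5 MX events whose libraries do not overlap and whose means are over 0.1 apart, with 14 of the 23 AL events above the dashed line of equal PSI.

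Between sperm and oocytes the AL events were called most often, followed closely by alternative first exon events (21.6%) and retained intron events (20.6%). The other types were at 6.94% to 13.8%. Of 102 AL events tested 25 were called (24.5%, beside 13.7% of 3163 events of all types), 17 toward the distal last exon in oocytes (beside 7.3% of all events with form 1 lower) and 8 toward the proximal one (beside 6.39%). Leaving out 1 library keeps 1 in its stage, so that such fits cannot show whether the count rests on a single library. With 1 spread from all 14 libraries the count was 41, beside 24.0%.

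The shifts with the lowest adjusted p ran in opposite directions. Fam220a, which encodes a protein known to bind Stat3, had a PSI of 0.0338 and 0.109 in sperm and 0.981 and 0.969 in oocytes. Its distal last exon thus dominated in sperm alone among the 7 stages, since the other 12 libraries were at 0.711 to 0.983. The log2 ratio rose by 8.35 ± 0.72 (SE; limma, adjusted p = 0.00774). For 1500011B03Rik it fell by 8.97 ± 0.88 (adjusted p = 0.0088, limma).

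Of the 12 called AL events with the widest PSI shifts, 10 others were also called between sperm and oocytes. Pbdc1 was among them, with a mean PSI of 0.766 in sperm and 0.0613 in oocytes (adjusted p = 0.0274, limma). The proximal share was lower in oocytes for Acbd6, an acyl-CoA-binding protein (0.821 and 0.629 in sperm, 0.102 and 0.0687 in oocytes), and for Ppih (0.701 and 1, then 0.0274 and 0.0353). It was also lower for Lysmd4 (0.719 and 0.796, then 0.131 and 0.0735) and Cystm1 (0.74 and 0.618, then 0 and 0). Ndufaf2, an assembly factor of respiratory complex I, was at 1 in both sperm libraries and at 0.491 and 0.224 in oocytes. Adjusted p for these 5 in limma ran from 0.0202 to 0.0381. Slc35b2, the Golgi transporter of the sulfate donor PAPS, went the other way, from 0.16 and 0.124 to 0.859 and 0.721 (adjusted p = 0.0248). Gm49292 and the 2 events of a locus on chromosome 17 with no named gene were lower in oocytes too, but were under 1 TPM in some embryo libraries.

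Acbd6, Ndufaf2 and Lysmd4 had other courses in the embryo. Acbd6 was at 0.412 and 0.187 at the 2-cell stage beside 0.189 and 0.185 in 1-cell embryos, and at 0.81 to 0.95 in the 6 libraries from the 4-cell stage on. Its step from the 2-cell to the 4-cell stage was not called (log2 ratio 3.01 ± 0.68 SE, adjusted p = 0.236, limma). Ndufaf2 was at 0.368 and 0.697 in 1-cell embryos, 0.197 and 0.0691 in 2-cell embryos, 0 and 0.0426 in 4-cell embryos and 0.409 and 0.532 in blastocysts. Its proximal share was thus lowest in the 4-cell libraries and did not fall steadily. Both last exons of Ndufaf2, at chr13:108081362-108081393 and chr13:108052919-108052954, are far shorter than the medians of all AL events. Whether they are complete transcript ends was not tested. Lysmd4 was at 0 in both 2-cell libraries and at 0.678 and 0.642 in those of the 4-cell stage.

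A full switch, with both libraries of 1 stage over 0.8 and both of another under 0.2, was seen in 6 of 85 AL events (7.06%), 1 of 26 MX events (3.85%) and 3.58% of all events. The other types were not counted apart. The AL events were those of 1500011B03Rik, Acbd6, Fam220a, Ndufaf2, Pbdc1 and Ywhag. Within the stages from oocyte to blastocyst there were 4 AL events (4.71%, beside 1.92%) and no MX event. At the other extreme, Nap1l1, a histone chaperone, was at 0.989 to 1 in all 14 libraries, Ndufb8, a complex I subunit, at 0.943 to 0.999, and Commd1, a regulator of copper and NF-kappaB, at 0 to 0.0805.

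From the 4-cell to the 8-cell stage 5 of 128 AL events were called (3.91%, beside 4.39% of all events), which is close to the background. Of these, 3 moved toward the proximal exon (beside 2.49% of all events with form 1 higher) and 2 toward the distal one (beside 1.9%). Hnrnpa2b1, an RNA-binding protein that itself regulates splicing, moved toward its distal last exon, with a PSI of 0.944 and 0.948 at the 4-cell stage and 0.735 and 0.578 at the 8-cell stage. Its log2 ratio fell by 3.15 ± 0.38 (SE; limma, adjusted p = 0.0215). The distal share fell in Syngr1, a synaptic vesicle protein, Pxmp2, a peroxisomal membrane protein, and Cox16, an assembly factor of cytochrome oxidase, whose mean PSI went from 0.701 to 0.895, 0.813 to 0.944 and 0.561 to 0.809. Bcas3 went from 0.662 to 0.355. None of the 5 calls was left with a pseudocount of 0.1 or with PSI as the tested value, and 1 was left with a replicate block. Whether they rest on a single library could not be decided, since leaving out 1 keeps 1 library in a stage. Only Hnrnpa2b1 was called with 1 spread from all 14 libraries (adjusted p = 0.0402, limma; 0.0212 to 0.163 over 11 settings), beside 0.11% of all events.

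No AL event was called by limma in the 3 other transitions. Over all events the share called in each was 0.0%. Counts at an unadjusted p under 0.05 had no limit on the PSI difference. From oocyte to 1-cell the count was 18 of 130 AL events, beside 5.55% of all events. It was 23 of 141 from 2-cell to 4-cell (beside 15.6%) and 20 of 111 from 8-cell to blastocyst (beside 15.2%). Calls of fits that leave out 1 library are not given, since these fits take the spread from the other stage alone. With 1 spread from all 14 libraries, 1 AL event was called from oocyte to 1-cell, that of AC158982.1 (beside 0.076%), and none in the 2-cell/4-cell or the 8-cell/blastocyst comparison (beside 0.628% and 0.0235%).

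**Figure D4:**
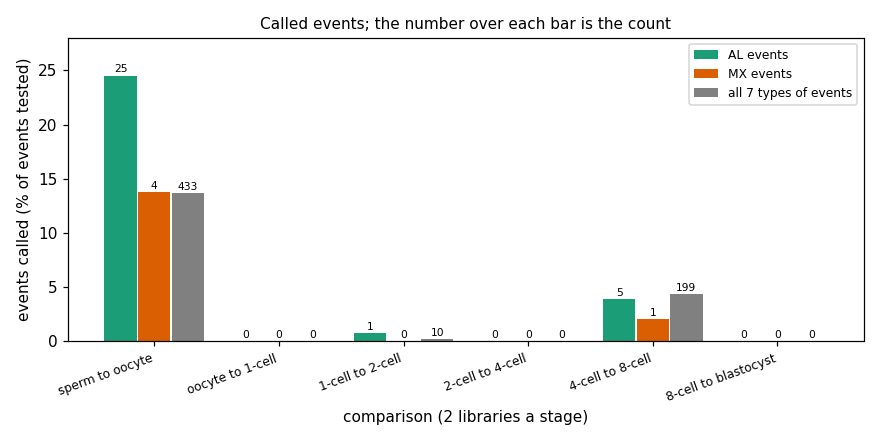
Share of tested events called (y axis, percent; limma, adjusted p under 0.05 and PSI difference over 0.1) in each of the 6 comparisons, for AL events, MX events and events of all 7 types, with the count over each bar. The bars are highest from sperm to oocyte (25 AL, 4 MX, 433 in all), and 3 comparisons have no call.

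Fewer MX than AL events passed the filter on low values. From sperm to oocyte 4 of 29 were called (13.8%, beside 13.7% of all events): 2 overlapping events of Immt, the mitofilin of the inner mitochondrial membrane, and those of Rnps1 and Fank1. Whether the count rests on a single library could not be decided, since leaving out 1 keeps 1 library in a stage. With 1 spread from all libraries the count was 9, beside 24.0%.

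Rnps1, a component of the exon junction complex that acts in splicing, had a wide MX shift between its pairs of libraries. Its upstream exon lies at chr17:24415041-24415162 and its downstream exon at chr17:24418038-24418218 on the plus strand. The PSI was 0.851 and 0.972 in sperm, 0.0902 and 0.0338 in oocytes, 0.0545 and 0.0149 in 1-cell embryos and 0.254 to 0.533 in the 8 later libraries. The oocyte and 1-cell libraries were thus lowest, with no overlap with any other. From sperm to oocyte the log2 ratio fell by 6.08 ± 1.04 (SE; limma, adjusted p = 0.019). From the 1-cell to the 2-cell stage it was 3.73 ± 0.74 higher, which missed the threshold (adjusted p = 0.081) and passed it with 1 spread from all libraries (adjusted p = 0.0123; 0.0123 to 0.43 over 11 settings).

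Both forms of Rnps1 were seen in the sperm long-read pool, while the other 6 pools held only the downstream exon. In Immt the downstream exon was at 9.02 and 10.4 TPM in oocytes and at 38.0 and 0.143 TPM in the 2 libraries of the 1-cell stage, which gave a PSI of 0.295 and 0.992 there for the first of its events. In the other libraries it was at 0 TPM except for 0.629 in one 8-cell library. Fank1, which is known from testis, went from 0.0166 and 0.027 in sperm to 0.259 and 0.288 in oocytes (log2 ratio 3.06 ± 0.74 SE, adjusted p = 0.0393).

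The MX event of Mdm4, an inhibitor of p53, was the only MX call from the 4-cell to the 8-cell stage, among 49 tested (2.04%, beside 4.39%). Its PSI was 0.187 and 0.216 at the 4-cell and 0.753 and 0.508 at the 8-cell stage (log2 ratio 2.55 ± 0.53 SE; limma, adjusted p = 0.0449). The 2 forms summed to over 100 TPM in the 4-cell libraries, where form 2 was at 85.5 and 81.9 TPM, and in the 8-cell libraries form 2 was at 1.71 and 0.709 TPM. Neither form was in GENCODE vM21. The call was lost with a replicate block, with 1 spread from all 14 libraries and with a pseudocount of 0.1. It was also lost with a minimum of 5 TPM and with PSI as the tested value. Leaving out 1 of the 4 libraries keeps 1 in a stage and cannot show whether the call rests on a single library.

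No MX event was called by limma in the 4 other comparisons. Counts at an unadjusted p under 0.05 had no limit on the PSI difference. They were 2 of 49 from oocyte to 1-cell and 8 of 48 from 1-cell to 2-cell. They were 8 of 50 from 2-cell to 4-cell and 4 of 42 from 8-cell to blastocyst. The same shares over all events were 5.55%, 20.9%, 15.6% and 15.2%. With 1 spread from all 14 libraries 5 of 48 were called from the 1-cell to the 2-cell stage, beside 10.9%: Pdlim7, Nkiras1, Tpm1, Rnps1 and Tcl1. As for AL events, calls of fits that leave out 1 library are not given.

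Pdlim7, a PDZ and LIM domain protein of the actin cytoskeleton, had a PSI of 0.908 and 0.965 in sperm, 0.535 and 0.555 in oocytes, 0.554 and 0.676 in 1-cell embryos and 0.937 to 1 from the 2-cell stage on. The downstream exon of 17 bases, short beside the upstream one of 119, was thus seen mainly in the oocyte and zygote. With 1 spread from all libraries the log2 ratio rose from the 1-cell to the 2-cell stage by 3.11 ± 0.61 (SE; limma, adjusted p = 0.00827), against an adjusted p of 0.094 in the separate fit and of 0.00827 to 0.525 over 11 settings.

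Tpm1, another gene of the actin cytoskeleton and the pair shown above, was also lowest in oocytes. Its upstream exon was at 0.574 and 0.624 in oocytes, 0.746 and 0.72 at the 1-cell stage, 0.933 to 1 in the 6 libraries from 2-cell to 8-cell and 0.775 and 0.818 in blastocysts. The TPM of the upstream form was 4.83 and 5.81 in oocytes and 274 and 773 in blastocysts, where the downstream form was at 79.5 and 172 TPM. The step from 8-cell to blastocyst was a log2 ratio of -2.81 ± 0.34 (SE) with an unadjusted p of 0.000727 and an adjusted p of 0.198 in limma, so that it was not called. From the 1-cell to the 2-cell stage Tpm1 was called with 1 spread from all libraries (adjusted p = 0.0113) and not in the separate fit (0.164), with a range of 0.0113 to 0.544 over 10 settings.

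Rab6a and Acp1 kept both exons in use at every stage. In Rab6a the upstream exon was at 0.142 and 0.193 in sperm and at 0.381 to 0.649 in the other 12 libraries. In Acp1 it was at 0.373 and 0.272 in sperm, 0.486 to 0.622 in the oocyte and 1-cell libraries and 0.675 to 0.79 in the 8 later ones. The groups of Acp1 did not overlap, though none of the 6 comparisons was called. For Rab6a from sperm to oocyte the adjusted p was 0.13 (log2 ratio 1.78 ± 0.70 SE, limma).

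**Figure D5:**
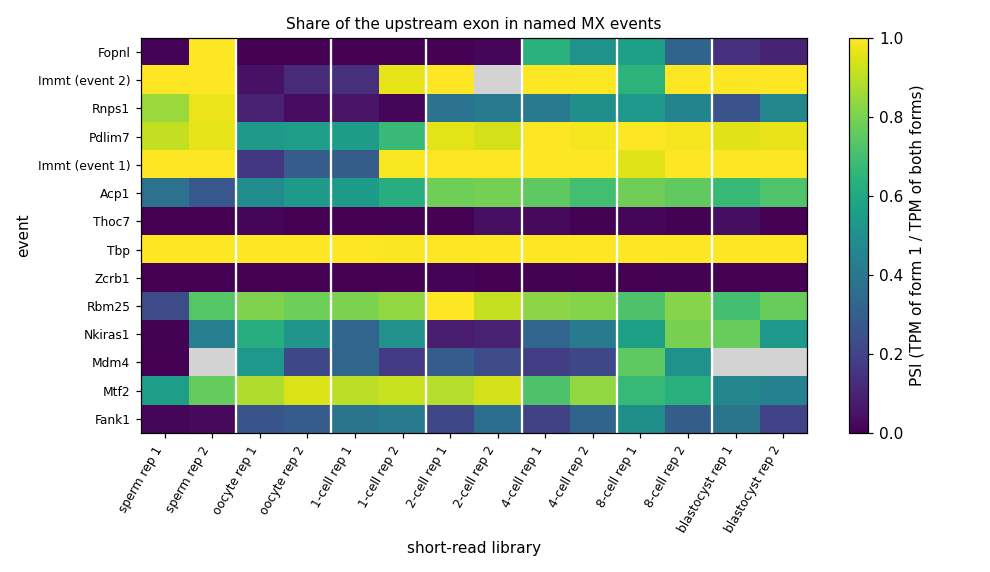
Share of the upstream exon (PSI, colour, from 0 to 1) in each of the 14 short-read libraries (columns, grouped by stage) for the MX events named by the fixed rule (rows), with grey where both forms summed to under 1 TPM. Rnps1 is at 0.0149 to 0.0902 in the oocyte and 1-cell libraries, and the 2 sperm libraries of Fopnl are at 0.011 and 1.

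The other named MX events showed wide spreads or single stages. Fopnl, a centrosomal protein, was at 0 to 0.0181 from oocyte to 2-cell and at 0.638 and 0.508 at the 4-cell stage, while its 2 sperm libraries were at opposite ends. Its step from 2-cell to 4-cell was not called (log2 ratio 3.32 ± 0.58 SE, adjusted p = 0.227, limma). Mtf2, an accessory protein of Polycomb repressive complex 2, was at 0.881 to 0.948 from oocyte to 2-cell, 0.634 and 0.668 at the 8-cell stage and 0.456 and 0.439 in blastocysts. Nkiras1, an inhibitor of NF-kappaB, has 2 MX events with the same exons and different downstream flanks. The one named by the rule had its lowest embryo values in the 2-cell libraries, at 0.0804 and 0.0905. The other, called between 1-cell and 2-cell embryos with 1 spread from all libraries, was at 0.953 and 0.95 and then at 0.754 and 0.759. Rbm25, a splicing factor, was at 0.7 or more in all libraries from oocyte on and at 0.228 and 0.736 in sperm. Higd1a, a mitochondrial protein of the hypoxia response, was chosen after its values were seen. Of the MX events without overlap and with means over 0.1 apart, it alone had a lower upstream share from the 2-cell stage on. It was at 0.928 to 1 and then 0.551 to 0.718. Nup85 was lower without overlap too, but its means of 0.9949 and 0.9224 were under 0.1 apart.

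The steadiest MX events were those where 1 exon was hardly used. The TATA-binding protein gene Tbp was at 0.993 to 1 and Thoc7, of the mRNA export complex TREX, at 0 to 0.0397 in all 14 libraries. Zcrb1, a protein of the minor spliceosome, was at 0 to 0.0094.

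The long-read pools of single stages held far fewer events than the merged annotation, from 17 AL events in sperm to 82 at the 1-cell stage and from 4 MX events in sperm to 15 in oocytes. Both forms were seen within at least 1 pool for 119 of 168 AL and 41 of 68 MX events. Where a pool held only the proximal form of an AL event, the short-read PSI of that stage had a median of 0.846 and was over 0.5 in 156 of 192 cases (81.2%). Where it held only the distal form the median was 0.271, with 134 of 176 under 0.5 (76.1%). For MX events the medians were 0.821 (65 cases) and 0.258 (60 cases).

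In a list of 24 genes of cleavage and polyadenylation 23 were tested, and 10 were higher at the 2-cell than at the 1-cell stage with none lower (limma on log2 of TPM + 1 over 12 libraries), beside 28.2% of 14496 genes called in either direction. Their median log2 change was 2.25, while that of all genes was 0.793. After quantile normalization the list's median was 1.008, and 8 were higher and 1, the poly(A) polymerase gene Papolg, was lower. In a fit of the 4 libraries alone none was called. Their part in the choice of last exons was not tested.

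The 6 with the largest change were Pabpc1, the cytoplasmic poly(A)-binding protein, and Clp1, Cstf2t, Nudt21 and Rbbp6 of the 3′ end processing machinery, with Snrpc of the U1 snRNP. Pabpc1 was at 1.67 and 3.33 TPM at the 1-cell and 236 and 240 TPM at the 2-cell stage (log2 change 6.14 ± 0.73 SE, adjusted p = 0.000295). Cstf2t, a form of the cleavage stimulation factor subunit that binds downstream of the cleavage site, was at 1.00 and 1.70 and then at 94.1 and 31.3 TPM (4.57 ± 0.80). Nudt21, a subunit of cleavage factor I, was at 5.57 and 2.64 and then at 150 and 49.6 TPM (4.16 ± 0.82). In the other 4 transitions from oocyte to blastocyst no gene of the list was called by limma, beside 2.64%, 2.3%, 3.38% and 1.81% of all genes.

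Of 24 splicing regulator genes 17 were tested. In 2-cell against 1-cell embryos 2 were higher, Esrp2 (2.66 ± 0.74 SE) and Mbnl3 (2.64 ± 0.88), both from under 1 TPM, and none after quantile normalization. The list's median log2 change was 0.195, beside 0.793 for all genes, and it was -0.492 after quantile normalization, so that its sign depended on the scaling. None was called by limma in the other 4 transitions.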

How the data were processed

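Short-read TPM and long-read annotations of 7 stages were used. The TPM values were deposited by the authors, who mapped long-read transcripts to mm10 with GMAP, merged those of all stages with Cuffmerge, and ran salmon on each short-read library against the 22612 merged transcripts, 1 library at a time. TPM keeps no depth, so no counting intervals are given, and the read totals listed by the study were not used. TPM tables made per stage were not used here.

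Events were rebuilt from the merged annotation with SUPPA2's definitions, and PSI was set where both forms summed to at least 1 TPM. Events of all 7 types were tested with limma 3.58.1 (R 4.3.3) on log2 of (form 1 TPM + 1)/(form 2 TPM + 1), with a trend on level, 4 libraries a comparison, both forms at least 1 TPM summed in each. P-values were two-sided and Benjamini-Hochberg adjusted over all events. An event was called at an adjusted p under 0.05 and a difference of mean PSI over 0.1. The fold is on the log2(TPM + 1) scale and understates changes of low forms. Gene TPM, summed over the transcripts of a locus, was tested on log2(TPM + 1). Scripts were tested on simulated data.

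Groups came from the sample titles, which number the 8-cell replicates the other way round than the deposited tables do, and the titles were followed. Labels name no separate animals for replicates, so p-values measure the spread between these libraries. Events, lists and tests were chosen with earlier results of these data known. Named AL events were the called ones (at most the 12 of largest PSI difference), the 8 of largest and the 3 of smallest range of stage means with at least 5 TPM in all libraries. MX events were named likewise, all called ones, with at least 1 TPM. Other events, among them the calls between the 4-cell and 8-cell libraries, were named after their values were seen. Of 2 fixed gene lists (cleavage and polyadenylation, splicing regulators) the called genes were named, at most 6 a comparison. Sequences are from GENCODE vM21 on GRCm38, the same build.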

Additional observations from a re-analysis of the deposited data

How the results depend on the processing

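Comparisons are written here as first/second stage. An event fit of 4 libraries that leaves out 1 of them keeps a single library in that stage. The spread then comes from the other stage alone. Such fits cannot show whether a count of called events rests on a single library, so their counts are not given. The ranges of adjusted p over all settings include these fits. With 1 spread from all 14 libraries the AL calls were 41 (sperm/oocyte), 1 (oocyte/1-cell), 24 (1-cell/2-cell) and 1 (4-cell/8-cell), and the MX calls 9 (sperm/oocyte), 5 (1-cell/2-cell) and 0 (4-cell/8-cell). A pseudocount of 0.1 TPM left 0 AL calls in 1-cell/2-cell and 0 AL and 0 MX calls in 4-cell/8-cell. Testing PSI itself gave 0 AL calls in 1-cell/2-cell, 1 AL (none of the 5) and 0 MX in 4-cell/8-cell, and 7 MX in sperm/oocyte. Asking for 1 TPM in only 2 libraries gave 39 AL and 7 MX calls in sperm/oocyte and 10 AL in 4-cell/8-cell. Asking for 5 TPM in each left 13 AL and 2 MX in sperm/oocyte, where fewer events were tested, and 0 MX in 4-cell/8-cell. Apart from the fit with 1 spread, the share over all events was not taken under these settings. The counts thus cannot be set against that of all events. Why the other settings moved a count was not tested. The sign of small changes that were not called could depend on the measure. For Tpm1 in 4-cell/8-cell the log2 ratio changed by 0.99 and PSI by -0.0163. For Commd1 in 8-cell/blastocyst these were -1.19 and 0.0008. In the AL and MX events called in sperm/oocyte the log2 ratio and PSI moved the same way.

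The main fit did not pair samples by replicate number. The correlations of same-numbered libraries' deviations ran from -0.202 to 0.259, of both signs. Whether the replicate numbers mark the batches that the paper collected at each stage was not tested. With a replicate block the AL calls were 0 in 1-cell/2-cell, 1 in 4-cell/8-cell and 36 in sperm/oocyte, the MX calls 0 in 4-cell/8-cell, and 1 splicing regulator was called in 1-cell/2-cell. The block moved no other count by over 1.5 times.

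For cleavage and polyadenylation genes a fit of 4 libraries gave 0 calls in 1-cell/2-cell and 3 in 4-cell/8-cell, and quantile normalization 2 in 2-cell/4-cell. Without 1 library the counts were 7 to 12 in 1-cell/2-cell and 0 to 3 in 2-cell/4-cell. For splicing regulators in 1-cell/2-cell the count was 0 with quantile normalization or 4 libraries and 1 without a filter on low values. Quantile normalization turned the sign of 3 list medians of log2 change, from 0.195 to -0.492 for splicing regulators in 1-cell/2-cell, from -0.341 to 0.035 for them in 8-cell/blastocyst and from 0.33 to -0.046 for cleavage and polyadenylation in oocyte/1-cell. It gave 5 in 2-cell/4-cell and 2 in 8-cell/blastocyst, no filter 1 in 8-cell/blastocyst, and in 4-cell/8-cell a pseudocount of 0.1 gave 1 and 4 libraries 3. Without 1 library their counts were 0 to 2 in 1-cell/2-cell, 0 to 4 in 2-cell/4-cell and 0 to 1 in 8-cell/blastocyst. Without 1 library of its own stage the median PSI of the 85 AL events was 0.484 to 0.496 in sperm, 0.38 to 0.383 in oocytes, 0.447 to 0.454 at 1-cell, 0.465 to 0.481 at 2-cell, 0.516 to 0.526 at 4-cell, 0.547 to 0.618 at 8-cell and 0.511 to 0.515 in blastocysts. With at least 5 TPM the median AL PSI was 0.357 in oocytes, 0.399 at 1-cell, 0.616 at 8-cell and 0.56 in blastocysts. The share of last exons with a polyadenylation hexamer is void, since sequence was held for 50.3% of proximal and 52.6% of distal last exons. Other letters and a window of 30 bases for the hexamer were therefore not run. The settings of 5 TPM and without the 2-cell libraries for the share of events without overlap were chosen after seeing the data.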
